A study of Mus musculus with 6 samples.

Results

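The 9 genes described here mark or direct innate lymphoid and natural killer cells, and their RNA was measured in sorted mouse thymus cells with and without RBPJ. They were the receptor genes Il1rl1, Il18r1, Il2rb and Klrb1c and the transcription factor genes Zbtb16, Rora, Nfil3, Eomes and Tbx21. The genes were named by symbol and matched to Ensembl IDs through GENCODE M21 on the build GRCm38 (mm10). The 9 members were each found among the 47729 genes of the count files, and each of the 9 passed the filter on low counts.

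The sorted cells were DN1a/b cells of the thymus, the earliest thymocytes, which can still give rise to several blood lineages. They came from C57BL/6 mice in 3 groups of 2 libraries each. In the group RBPJ 6 days induced, mice otherwise deficient in RBPJ had its expression switched on with doxycycline for 6 days. The drug was first injected (2 mg/ml), and drinking water with 1 mg/ml followed. The RBPJ uninduced mice lacked RBPJ and Control mice kept it. The sources used here do not give how RBPJ was removed, in which cells, or whether mice of the other groups had doxycycline, so RBPJ and the drug cannot be told apart. They also do not give whether the libraries within a group are from different mice. The p-values therefore measure the spread between these libraries, which may be technical.

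Innate lymphoid cells resemble T cells in the cytokines they make but carry no antigen receptor. They include natural killer cells and the helper types 1, 2 and 3, and they arise from lymphoid precursors related to those that seed the thymus. RBPJ binds DNA and carries the signal of Notch receptors to their target genes. Strong Notch signalling directs thymus-seeding precursors to the T lineage, and a smaller or shorter signal is needed by several innate lymphoid types.

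Libraries held between 5098927 and 12932928 counts, with RBPJ uninduced replicate 1 and Control replicate 2 the shallowest at 5098927 and 5311391. Rbpj itself stood at 198 and 203 CPM (counts scaled to the TMM-adjusted total of the library) in induced cells. Its level was 28.2 and 30.0 CPM in uninduced cells and 74.1 and 72.9 CPM in Control cells. By edgeR, Rbpj was lower in uninduced than in Control cells (log2 fold change -1.34, adjusted p = 0.00495). Induced cells were above Control (1.45, adjusted p = 0.0175). A near-identical pseudogene can share reads with Rbpj, which was not examined, and the source of the uninduced Rbpj reads was not tested. The 10 DN1 stage markers each had counts in every library, and Kit, the stem cell factor receptor, ranged from 372 to 631 CPM. Their sum was 2240 and 2160 CPM in induced cells, 1450 and 1180 CPM in uninduced cells and 2690 and 2110 CPM in Control cells. Of the 10, Notch1 (log2 fold change -3.36, adjusted p = 0.000186) and Cd44 (-0.89, adjusted p = 0.0188) fell in uninduced against Control cells, and Notch1 rose on induction (2.59, adjusted p = 0.000951). Some libraries stood apart. RBPJ uninduced replicate 2 had 848 CPM summed over 10 B cell markers, against 7.16 to 44.9 CPM in the other 5 libraries. Control replicate 2 had counts in 30343 genes, against 18560 to 24025 in the others, and 701 CPM over 13 later thymocyte and T cell markers. RBPJ uninduced replicate 1 had 15 of 27 natural killer genes at 0. Zeros were common in that library, where 18560 of all 47729 genes had a count. In such bulk samples, fewer cells of a type and less RNA per cell cannot be told apart.

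Without RBPJ, 2 of the 9 members rose and 1 fell. Il1rl1 and Zbtb16 were higher in uninduced than in Control cells and Il18r1 was lower, by edgeR's quasi-likelihood test with Benjamini-Hochberg adjustment over 18174 genes and a threshold of 0.05. Among all genes tested, 2.49% were called higher and 2.93% lower in that comparison. After 6 days of induction Il18r1 was higher than in uninduced cells, the only member called, against 1.55% of all genes called higher. No member was called lower on induction, where 1 member had an unadjusted p below 0.05, DESeq2 called 0 members, and edgeR called 0.413% of all genes lower. Induced against Control cells gave 1 member called higher, Il1rl1, against 0.187% of all genes. No member was called lower there by edgeR or by DESeq2, and 0 had an unadjusted p below 0.05. Of all genes, 0% were called lower by edgeR in that comparison, 281 had an unadjusted p below 0.05, and DESeq2 called 49. The median log2 fold change of the members was 1.48 in uninduced against Control, -0.12 in induced against uninduced and 1.36 in induced against Control cells, beside -0.02, -0.03 and -0.02 over all genes tested in the same comparisons. With 9 members, each member median is the value of 1 gene, Il2rb, Zbtb16 and Tbx21 in that order. None of them was called in the comparison concerned, and Il2rb and Tbx21 had standard errors of 1.29 and 2.00 there. The medians therefore do not show a shift of the whole set. Each pair of comparisons shares a group and is not independent.

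**Figure D1:**
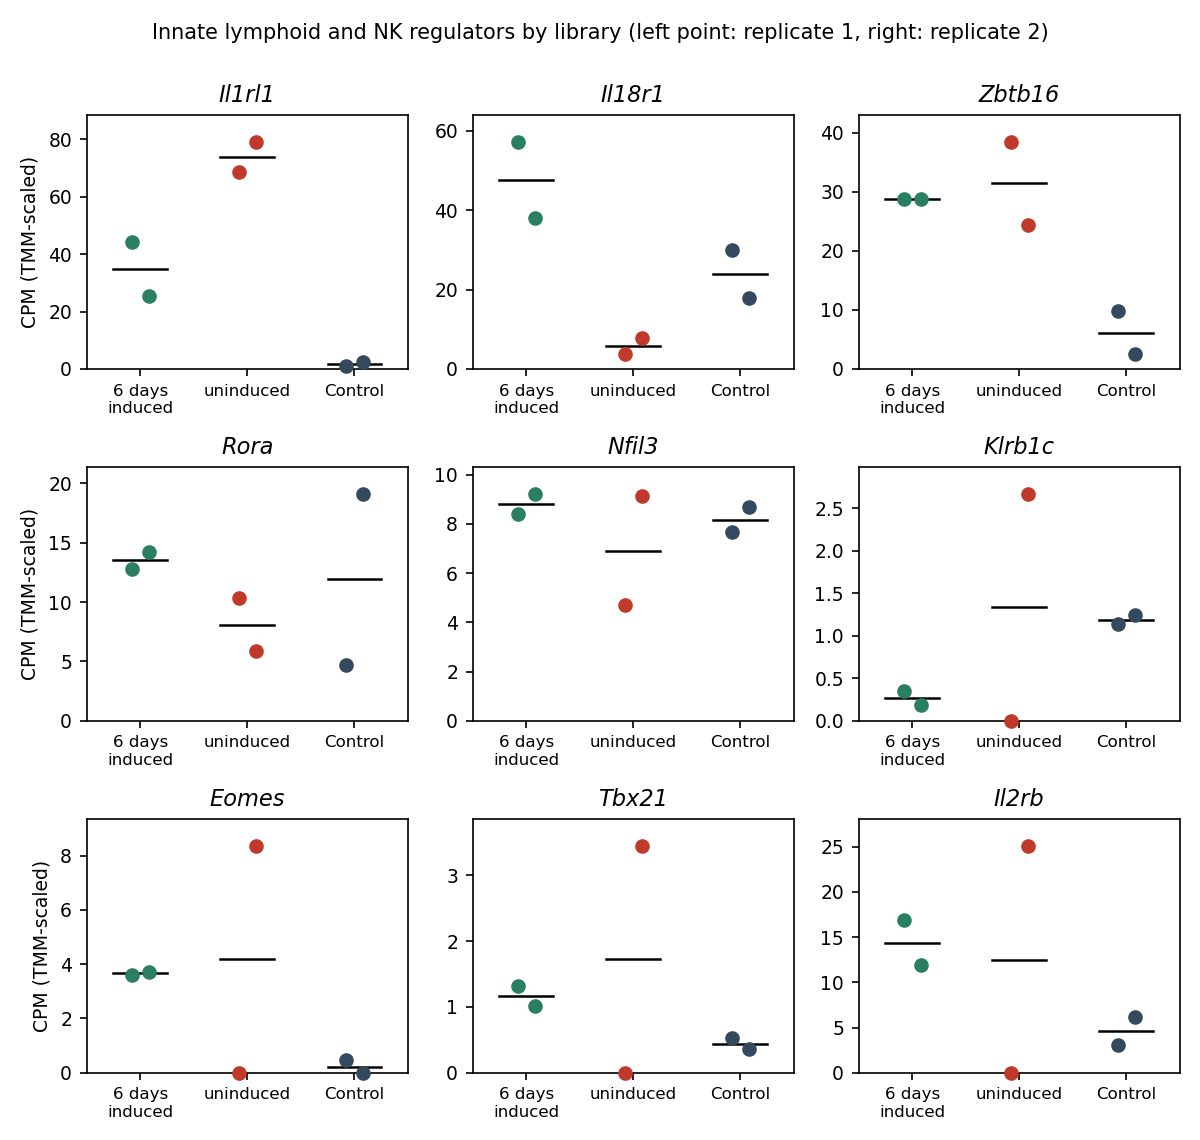
Level of each of the 9 members in each library, in CPM on TMM-scaled totals, with 2 points per group and a line at the group mean. Il1rl1 lay at 25.5 CPM or above in the 4 libraries of induced and uninduced mice and at 2.48 CPM or below in Control libraries, while Il18r1 was lowest in uninduced libraries.

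**Figure D2:**
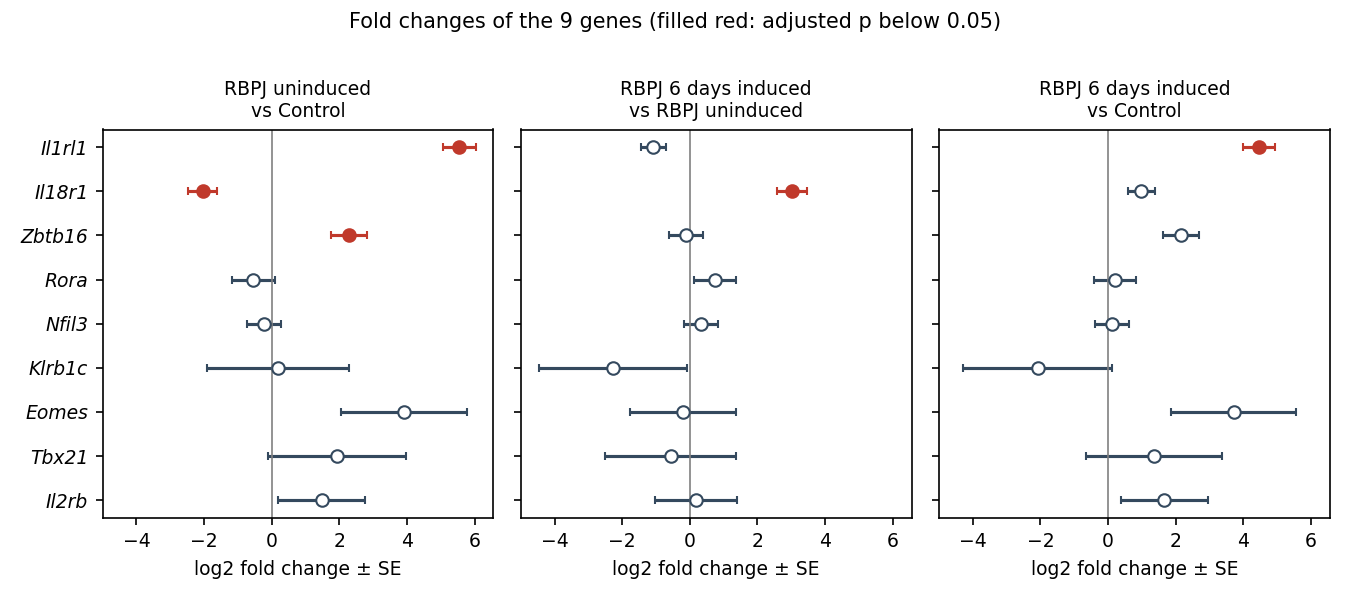
Fitted log2 fold change of each member in the 3 comparisons, with its standard error and filled points where the adjusted p was below 0.05. Il1rl1, Il18r1 and Zbtb16 were the members called in at least 1 comparison, and Klrb1c, Eomes, Tbx21 and Il2rb had standard errors of 1.22 or more throughout.

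Il1rl1 encodes ST2, the receptor for the alarm cytokine interleukin 33, carried by type 2 innate lymphoid cells and their precursors and also by mast cells. The gene lies on the plus strand of chromosome 1, from 40429570 to 40465415. Its level was 44.3 and 25.5 CPM in induced cells, 68.5 and 79.0 CPM in uninduced cells and 0.99 and 2.48 CPM in Control cells. Those Control levels rested on 13 and 14 counts. Every induced and uninduced library lay far above both Control libraries, and the 3 groups did not overlap. Of all genes tested, 44.3% likewise had no overlap of the groups in uninduced against Control cells. That share was 46.6% in induced against uninduced and 37.5% in induced against Control cells. Separation of the libraries, here and for the members below, is therefore common with 2 libraries a group. Il1rl1 was 46.7-fold higher in uninduced than in Control cells (log2 fold change 5.55, SE 0.482, adjusted p = 0.000568). Induced cells were 22.1-fold above Control (log2 fold change 4.47, SE 0.469, adjusted p = 0.00741). The induced mean of 34.9 ± 13.3 CPM was below the uninduced mean of 73.8 ± 7.44 CPM (SD, n = 2 each), but that difference did not pass (log2 fold change -1.08, SE 0.37, adjusted p = 0.191). The size of these folds depended on the Control libraries. Uninduced against Control was 4.92 without Control replicate 1 and 6.11 without replicate 2 on the log2 scale, and induced against Control was 3.86 and 5.09. Both calls against Control held in each of 13 alternative analyses, with adjusted p of at most 0.0136 in uninduced and 0.0155 in induced cells.

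Il18r1 encodes the ligand-binding chain of the interleukin 18 receptor, found on natural killer cells, type 1 innate lymphoid cells and innate lymphoid precursors. It is the next gene along the same strand, from 40465552 to 40500854, and starts 136 bases past the end of Il1rl1. Its level was 57.2 and 38.0 CPM in induced cells, 3.82 and 7.69 CPM in uninduced cells and 29.9 and 17.9 CPM in Control cells. Both uninduced libraries were below every other library, and both induced libraries were above both Control libraries. Il18r1 fell without RBPJ, with a log2 fold change of -2.04 against Control (SE 0.433, adjusted p = 0.0293). This call was lost without Control replicate 1 (-1.57, adjusted p = 0.151) and with the 4 compared libraries fitted alone (-2.06, adjusted p = 0.119), and without uninduced replicate 2 the value was -2.68 (adjusted p = 0.00193). It rose on induction, 8.12-fold over uninduced cells (log2 fold change 3.02, SE 0.443, adjusted p = 0.0129), and this call missed the threshold in the fit of the 4 compared libraries alone (3.04, adjusted p = 0.0563). Without uninduced replicate 2 it was 3.65 (adjusted p = 0.000355), and without replicate 1 it was 2.68 (adjusted p = 0.000877). The difference between induced and Control cells did not pass (log2 fold change 0.99, SE 0.403, adjusted p = 0.878). The sum of the 13 later thymocyte and T cell markers was likewise lowest in uninduced cells. It was 191 and 193 CPM in induced cells, 31.1 and 33.9 CPM in uninduced cells and 423 and 701 CPM in Control cells. Trbc1, at 76.3 and 81.4 CPM, and Trbc2, at 37.5 and 36.5 CPM, made up most of the induced sum. Not each marker followed it, since Cd8a had 1.24 and 2.70 CPM in induced and 1.22 and 3.01 CPM in uninduced cells. The part of these markers in the Il18r1 difference was not tested.

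The neighbours Il1rl1 and Il18r1 thus differed from Control in opposite directions in uninduced cells, and their sequence is shown because so few bases separate them. The 3 stretches printed are the plus strand of GRCm38.p6, the first pair from the RefSeq promoter windows of the alternative starts of Il1rl1 and the last the bases between the genes. Capitals mark TGGGAA, core letters bound by RBPJ, or AGATAA, 1 form of the letters bound by GATA factors, read on either strand (TTCCCA and TTATCT). Other forms were not searched or marked, so a GATA match below means AGATAA only. These are the upstream start at chr1:40429320-40429569, the downstream start at chr1:40439379-40439626 and the gap at chr1:40465416-40465551.
Il1rl1 upstream start: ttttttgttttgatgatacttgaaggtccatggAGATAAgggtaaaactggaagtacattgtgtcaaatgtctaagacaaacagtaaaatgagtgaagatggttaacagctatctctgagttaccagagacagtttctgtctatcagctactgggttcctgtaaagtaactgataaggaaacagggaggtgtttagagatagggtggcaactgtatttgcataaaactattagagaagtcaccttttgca
Il1rl1 downstream start: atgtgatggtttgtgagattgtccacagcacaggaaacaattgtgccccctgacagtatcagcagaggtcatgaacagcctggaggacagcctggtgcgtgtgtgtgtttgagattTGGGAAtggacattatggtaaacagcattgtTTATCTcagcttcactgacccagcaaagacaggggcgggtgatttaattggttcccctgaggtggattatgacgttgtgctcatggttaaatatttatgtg
Il1rl1 to Il18r1 gap: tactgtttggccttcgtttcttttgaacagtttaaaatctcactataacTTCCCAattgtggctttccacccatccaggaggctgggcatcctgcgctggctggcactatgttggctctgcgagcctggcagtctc
The upstream window of Il1rl1 held 1 GATA match, 217 bases before the start, and 0 matches to the RBPJ core. The downstream window held 1 of each, the RBPJ core 134 bases and the GATA letters 103 bases before the start. The gap held 1 RBPJ core, 87 bases before the first start of Il18r1, and 0 GATA matches. RefSeq gives 3 starts for Il18r1. The window of the next start held that same RBPJ core, the window of the last, from 40465756 to 40466005, held 2 others, and neither held a GATA match. Windows of 250 bases before a start held the RBPJ core in 21.6% and the GATA letters in 9.99% of 32851 RefSeq promoters, so matches of this kind are common and describe letters, not binding. Promoter windows were found for 7 of the 9 members. Tbx21 held 1 RBPJ core, 177 bases before its start, and Rora, Nfil3, Klrb1c and Eomes held neither TGGGAA nor AGATAA on either strand.

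Il1rl1 and Il18r1 sit in a row of related receptor genes on one strand, with Il1r2, Il1r1 and Il1rl2 before them and Il18rap after them. Il1r1 is the signalling receptor for interleukin 1 and Il1r2 its decoy. Il18rap encodes the other chain of the interleukin 18 receptor. Its level was 94.8 and 89.4 CPM in induced cells, 25.6 and 22.6 CPM in uninduced cells and 110 and 117 CPM in Control cells. Il18rap fell without RBPJ (log2 fold change -2.24, SE 0.205, adjusted p = 0.000715) and rose on induction (1.94, SE 0.203, adjusted p = 0.00337), as its partner Il18r1 did. Il1r1 (-2.72, SE 0.629, adjusted p = 0.0397) and Il1r2 (-3.28, SE 0.529, adjusted p = 0.00907) were also lower in uninduced than in Control cells. Both had higher levels after induction, but neither passed (adjusted p = 0.105 for Il1r1 and 0.0765 for Il1r2). Il1rl2, the gene just before Il1rl1, had a log2 fold change of 0.24 against Control (SE 0.617, adjusted p = 0.925). Il1rl1 was the 1 gene called higher in uninduced cells among 9 interleukin 1 receptor genes tested, of which 4 were called lower. The fall was not limited to receptor genes. Map4k4, the flanking gene before Il1r2 and named after its values were seen, also fell (-1.5, SE 0.185, adjusted p = 0.00298). It rose on induction (1.14, SE 0.184, adjusted p = 0.0189).

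**Figure D3:**
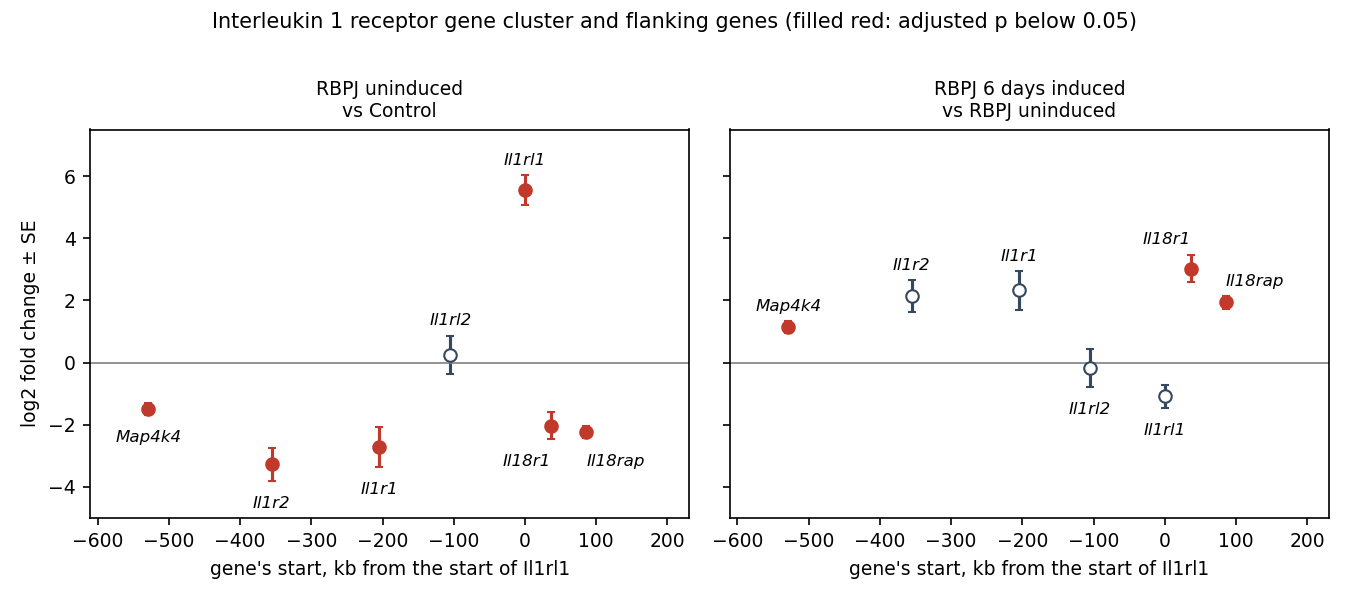
Log2 fold change with its standard error for genes of the interleukin 1 receptor cluster and the flanking gene Map4k4, placed by the distance of each gene's start from the start of Il1rl1 in kilobases. In uninduced against Control cells Il1rl1 stands at 5.55 while Il1r2, Il1r1, Il18r1 and Il18rap lie between -3.28 and -2.04. Map4k4 lies at -1.5.

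The chain that ST2 pairs with is encoded by Il1rap. This gene stood at 13.1 and 13.5 CPM in induced cells, 19.5 and 17.4 CPM in uninduced cells and 12.9 and 16.1 CPM in Control cells. Its difference between uninduced and Control cells did not pass (log2 fold change 0.35, adjusted p = 0.686). Of the ligands of the member receptors, Il33 and Il2 had too few counts to test, and Il18 and Il15 were not called in any of the 3 comparisons.

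Il2rb encodes the beta chain shared by the receptors for interleukin 2 and interleukin 15, the cytokine that natural killer cells need to survive. The gene lies on the minus strand of chromosome 15, from 78479256 to 78495271. Its level was 16.9 and 11.9 CPM in induced cells, 0 and 25.1 CPM in uninduced cells and 3.12 and 6.19 CPM in Control cells. The uninduced libraries were at opposite ends, with no count in replicate 1 and 225 counts in replicate 2, while both induced libraries lay above both Control libraries. No comparison passed (log2 fold change 1.48, SE 1.29, adjusted p = 0.629 for uninduced against Control, 0.18, SE 1.22, adjusted p = 0.97 for induced against uninduced, and 1.66, SE 1.29, adjusted p = 1 for induced against Control). The uninduced result turned on which library was kept. Without RBPJ uninduced replicate 2 the fitted log2 fold change against Control was -8.4 (adjusted p = 0.00302), and without replicate 1 it was 2.43 (adjusted p = 0.00172). Without uninduced replicate 1 the induced cells were above Control by 1.69 (adjusted p = 0.0379), and without replicate 2 they were above uninduced cells by 10.07 (adjusted p = 0.000677), a fitted value against a library with no count.

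Of the partner chains of Il2rb, 1 was called. Il2rg, the common gamma chain, stood at 35.9 and 34.4 CPM in induced cells, 11.6 and 14.5 CPM in uninduced cells and 52.5 and 49.7 CPM in Control cells. Il2rg fell without RBPJ (log2 fold change -1.96, adjusted p = 0.00459) and rose on induction (1.42, adjusted p = 0.0313). Il2ra had 0.522 CPM in uninduced replicate 1 and 15.9 CPM or more in the other 5 libraries, and it was not called (-0.92, adjusted p = 0.713 for uninduced against Control). Il15ra ranged from 4.79 to 11.6 CPM and was not called (0.31, adjusted p = 0.872). Over 18 receptor partner and signalling genes, 1 rose and 3 fell in uninduced against Control cells, and 3 rose on induction. The 1 that rose was Stat5a, a transcription factor activated by these receptors (log2 fold change 1.01, SE 0.194, adjusted p = 0.0198), and Il12rb2, a chain of the interleukin 12 receptor, fell (-1.7, SE 0.346, adjusted p = 0.0245).

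Klrb1c encodes NK1.1, the surface protein by which natural killer cells are identified in C57BL/6 mice. The gene lies on the minus strand of chromosome 6, from 128778485 to 128789215, and shares 413 exon bases with Gm44511, which had 0 counts in all 6 libraries. Its related neighbours Klrb1a, Klrb1b and Klrb1f can share its reads. Klrb1c had 4 and 2 counts in induced cells, 0 and 24 counts in uninduced cells and 15 and 7 counts in Control cells. At 0.353 and 0.186 CPM, the induced libraries were below both Control libraries at 1.14 and 1.24 CPM, and uninduced replicate 2 at 2.67 CPM was the highest. No comparison passed (log2 fold change 0.19, SE 2.09, adjusted p = 0.986 for uninduced against Control, -2.27, SE 2.20, adjusted p = 0.694 for induced against uninduced, and -2.08, SE 2.20, adjusted p = 1 for induced against Control). The first of these was -0.14 with total counts in place of TMM.

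Zbtb16 encodes PLZF, a transcription factor of innate lymphoid precursors and natural killer T cells. The gene lies on the minus strand of chromosome 9, from 48654297 to 48836222. Its level was 28.8 and 28.8 CPM in induced cells, 38.4 and 24.4 CPM in uninduced cells and 9.82 and 2.48 CPM in Control cells. Every induced and uninduced library lay above both Control libraries, and the induced libraries lay within the uninduced range. Zbtb16 rose without RBPJ, with a log2 fold change of 2.29 against Control (SE 0.54, adjusted p = 0.0424). That call was lost without Control replicate 2 (1.58, adjusted p = 0.124), in the fit of the 4 compared libraries alone (2.3, adjusted p = 0.155) and with total counts in place of TMM (2.25, adjusted p = 0.0548). Without Control replicate 1 the value was 3.68 (adjusted p = 0.00642). Induced cells were also above Control (2.16, SE 0.537), but this did not pass (unadjusted p = 0.00275, adjusted p = 0.267). It passed in 6 of 13 alternatives, among them DESeq2 (2.13, adjusted p = 0.0278) and the fit without Control replicate 1 (3.58, adjusted p = 0.0358). Between induced and uninduced cells the log2 fold change was -0.12 (SE 0.505, adjusted p = 0.948), and it was 0.29 without uninduced replicate 1.

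Rora encodes the nuclear receptor ROR alpha, required for type 2 innate lymphoid cells. The gene lies on the plus strand of chromosome 9, from 68653786 to 69388246. Its level was 12.8 and 14.2 CPM in induced cells, 10.3 and 5.91 CPM in uninduced cells and 4.72 and 19.1 CPM in Control cells. The Control libraries enclosed the other 4, so the groups overlapped in both comparisons with Control. Rora was not called against Control in uninduced (log2 fold change -0.54, SE 0.626, adjusted p = 0.748) or induced cells (0.20, adjusted p = 1). Those directions depended on 1 Control library each, since uninduced against Control was 0.68 without Control replicate 2 and induced against Control was -0.45 without Control replicate 1. Both induced libraries were above both uninduced libraries, without passing (0.75, adjusted p = 0.633). The antisense gene Gm15511 shares 82 exon bases with Rora and had at most 2 counts in a library.

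Nfil3 encodes a basic leucine zipper factor needed early in the making of natural killer and other innate lymphoid cells. The gene lies on the minus strand of chromosome 13, from 52967209 to 52981073. Its level was 8.39 and 9.22 CPM in induced cells, 4.69 and 9.14 CPM in uninduced cells and 7.69 and 8.67 CPM in Control cells. Uninduced replicate 1 was the lowest and the other 5 libraries lay close together. Nfil3 was not called in any comparison, with log2 fold changes of -0.23 (SE 0.504, adjusted p = 0.901) for uninduced against Control, 0.34 (adjusted p = 0.822) for induced against uninduced and 0.11 (adjusted p = 1) for induced against Control. Without uninduced replicate 1 its value against Control was 0.11.

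Eomes and Tbx21 encode the related T-box factors EOMES and T-bet, which drive natural killer and type 1 innate lymphoid cell development. Eomes lies on the plus strand of chromosome 9, from 118478212 to 118486132. It had 3.62 and 3.73 CPM in induced cells, 0 and 8.36 CPM in uninduced cells and 0.457 and 0 CPM in Control cells. Both induced libraries, with 41 and 40 counts, were above both Control libraries, with 6 and 0 counts, and the uninduced libraries lay outside the induced ones on either side. Eomes passed in no comparison (log2 fold change 3.92, SE 1.86, adjusted p = 0.304 for uninduced against Control, -0.20, adjusted p = 0.972 for induced against uninduced, and 3.72, SE 1.85, adjusted p = 1 for induced against Control). Without uninduced replicate 2 the uninduced value against Control was -4.36 (adjusted p = 0.506), and without uninduced replicate 1 it was 4.78 (adjusted p = 0.0118). The opposite-strand gene Gm33460, not analysed here, shares 118 exon bases with Eomes, and the sources used here do not state the strand setting of the counts.

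Tbx21 lies on the minus strand of chromosome 11, from 97098071 to 97115331. It had 1.32 and 1.02 CPM in induced cells, 0 and 3.45 CPM in uninduced cells and 0.533 and 0.354 CPM in Control cells. Both induced libraries were above both Control libraries, with 15 and 11 counts against 7 and 2, and uninduced replicate 2 was again the highest. No comparison passed (log2 fold change 1.93, SE 2.03, adjusted p = 0.714 for uninduced against Control, -0.57, adjusted p = 0.935 for induced against uninduced, and 1.36, SE 2.00, adjusted p = 1 for induced against Control).

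Klrb1c, Eomes, Tbx21 and Il2rb, 4 members tied to natural killer cells, shared a split within the uninduced group. They were grouped after their values were seen. Each had 0 counts in uninduced replicate 1, which allows up to 0.522 CPM each (3 counts, for counting error only), and its highest level of the 6 libraries in uninduced replicate 2. Set against that limit, replicate 2 was at least 5.13-fold higher than replicate 1 for Klrb1c, 16-fold for Eomes, 6.62-fold for Tbx21 and 48.1-fold for Il2rb. Nfil3 and Il18r1, also tied to natural killer cells above, had counts in both uninduced libraries. These were 27 and 82 counts for Nfil3 and 22 and 69 counts for Il18r1. The wider list of 27 natural killer genes followed the split of zeros in part. It had 15 genes at 0 in uninduced replicate 1 and 3 in replicate 2, but its sums were 140 and 163 CPM. Of all 47729 genes, 18560 had a count in uninduced replicate 1 and 22670 in replicate 2, so zeros were common in both. Gzmb, encoding a granzyme, stood at 45.9 and 44.2 CPM in those libraries and Nkg7, a granule gene, at 46.4 and 25.1 CPM, both named after their values were seen. Uninduced replicate 2 was also the library with the high B cell marker sum. The part of other cells in these values was not tested.

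The order of the members by length-scaled level also differed between groups. In CPM per kilobase of exon, Il18r1 was highest in induced cells at 9.89, followed by Zbtb16 at 5.45 and Il1rl1 at 5.07, whose ranges overlapped. Il1rl1 led in uninduced cells at 10.7 CPM per kilobase, ahead of Zbtb16 at 5.95, while Il18r1 was at 1.2, and the members from Nfil3 at 3.41 downward overlapped with their neighbours. Il18r1 at 4.96 and Nfil3 at 4.04 CPM per kilobase led in Control cells with overlapping ranges, and Il1rl1 ranked 7 of 9 at 0.251. Klrb1c was last in induced cells at 0.0911 and in uninduced cells at 0.452, and Eomes was last in Control cells at 0.055.

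Over 20 other transcription factors of innate lymphoid cells, 19 had enough counts to test. In uninduced against Control cells 5 fell and 1 rose. Tox, needed for lymphoid precursors to take the innate path, and Tcf7, encoding TCF1, had log2 fold changes of -4.37 (SE 0.303, adjusted p = 0.000273) and -4.36 (SE 0.346, adjusted p = 0.000387). Runx3, which natural killer cells need to mature, also fell (log2 fold change -1.32, SE 0.175, adjusted p = 0.00403). Zeb2, a repressor active in maturing natural killer cells, was the 1 that rose (1.23, SE 0.163, adjusted p = 0.00396), and it was also above Control in induced cells (1.15, adjusted p = 0.0294). Tox, Tcf7, Runx3 and Gata3 were the 4 that rose on induction. Gata3, required with Rora for type 2 cells, rose by 3.02 on the log2 scale (SE 0.455, adjusted p = 0.0145). It was also among the 5 that fell in uninduced against Control cells (-3.09, SE 0.457, adjusted p = 0.00617). Its induced levels of 36.6 and 37.3 CPM lay between the Control levels of 45.1 and 32.5 CPM.

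Genes of mature innate lymphoid and natural killer cells were mostly not called. Of 27 natural killer receptor and effector genes, 20 were tested, and 2 of them fell in uninduced against Control cells. Fasl, the death receptor ligand, had 0 counts in both uninduced libraries, against 27 and 14.9 CPM in Control cells, at least 48.9-fold lower than Control (adjusted p = 0.00181). Cd160 also fell (log2 fold change -2.74, SE 0.643, adjusted p = 0.0414). Fasl was the 1 gene of the list that rose on induction, at least 32.3-fold (adjusted p = 0.00517). In induced against Control cells edgeR called 0 of the 20 (4 at an unadjusted p below 0.05, and 1 by DESeq2). Ncr1, the activating receptor NKp46, stood at 11 and 15.8 CPM in induced cells, 0 and 7.91 CPM in uninduced cells and 0.609 and 1.59 CPM in Control cells (log2 fold change 3.67, adjusted p = 0.753). Klrk1, encoding NKG2D, stood at 25.8 and 15.7 CPM in induced cells, 0.348 and 9.25 CPM in uninduced cells and 1.14 and 2.12 CPM in Control cells (3.71, adjusted p = 0.389). Ncr1 and Klrk1 are named after their values were seen.

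Of 12 type 2 genes, 7 were tested, and Il17rb, the interleukin 25 receptor, was the 1 that fell without RBPJ (-3.86, SE 0.456, adjusted p = 0.00237) and rose on induction (3.59, adjusted p = 0.00612). Il5, Il9 and Nmur1 had 0 counts in all 6 libraries. Without RBPJ, Il17rb thus moved opposite to Il1rl1, another receptor of type 2 cells. Of 12 type 3 genes, 9 were tested, and Tnfsf11 was the 1 that fell (-6.45, SE 0.802, adjusted p = 0.00308) and rose on induction (4.34, adjusted p = 0.029). Among 10 surface genes of innate lymphoid precursors, Il18r1, Cd7 and Itgb7 fell without RBPJ and rose on induction. Cd7 stood at 42.0 and 38.2 CPM in induced cells, 1.39 and 4.12 CPM in uninduced cells and 37.3 and 19.8 CPM in Control cells.

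The summed mast cell markers were also higher in the groups in which Il1rl1 and Zbtb16 were high, but not each marker in each library. Without Kit, which DN1 cells also express, the 11 mast cell and basophil markers summed to 391 and 346 CPM in induced cells, 1040 and 684 CPM in uninduced cells and 85.2 and 70.9 CPM in Control cells. With Kit in the list, 10 of 12 were tested, 7 rose in uninduced against Control cells, 1 fell on induction, and 2 were above Control in induced cells, Gata2 and Ms4a2. Gata2 stood at 167 and 167 CPM in induced cells, 283 and 190 CPM in uninduced cells and 9.21 and 17.0 CPM in Control cells. Ms4a2, a chain of the IgE receptor, had 10.4 and 16.0 CPM in induced cells, 30.8 and 14.4 CPM in uninduced cells and 0.0761 and 0.354 CPM in Control cells. The mast cell proteases split the induced libraries. Cma1 had 24.8 and 1.58 CPM in induced cells, 180 and 143 CPM in uninduced cells and 1.68 and 0.177 CPM in Control cells. Mcpt4 (35.1 and 2.05 CPM) and Tpsb2 (20.2 and 0.652 CPM) had the same order in the induced libraries. Replicate 2 was thus at or close to Control levels of these proteases, while Gata2 and Cpa3, at 167 and 136 CPM, made up most of its marker sum. Not every defining gene was present: Prss34 had no count in 5 of the 6 libraries, and Fcer1a had none in 3 and at most 4.35 CPM in the others. Myeloid markers summed to 782 and 1690 CPM in induced cells, 4440 and 3300 CPM in uninduced cells and 590 and 517 CPM in Control cells. Most of each sum was Mpo, at 604 and 1300, 3710 and 2720, and 495 and 420 CPM in those groups. Of the 10 myeloid markers, 6 rose in uninduced against Control cells and 1 fell on induction, so the rise was not particular to mast cell markers. Natural killer genes summed to 205 and 202 CPM in induced cells, 140 and 163 CPM in uninduced cells and 135 and 145 CPM in Control cells. That sum says little of single receptors. In uninduced replicate 1 it was mostly Gzmb, Nkg7 and Tnfsf10, at 45.9, 46.4 and 33.2 CPM, named after their values were seen. Ncr1 and Klrk1 were higher in both induced than in both Control libraries and Cd160 was lower, all without passing. The part of other cells in the differences of Il1rl1 and Zbtb16 was not tested.

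**Figure D4:**
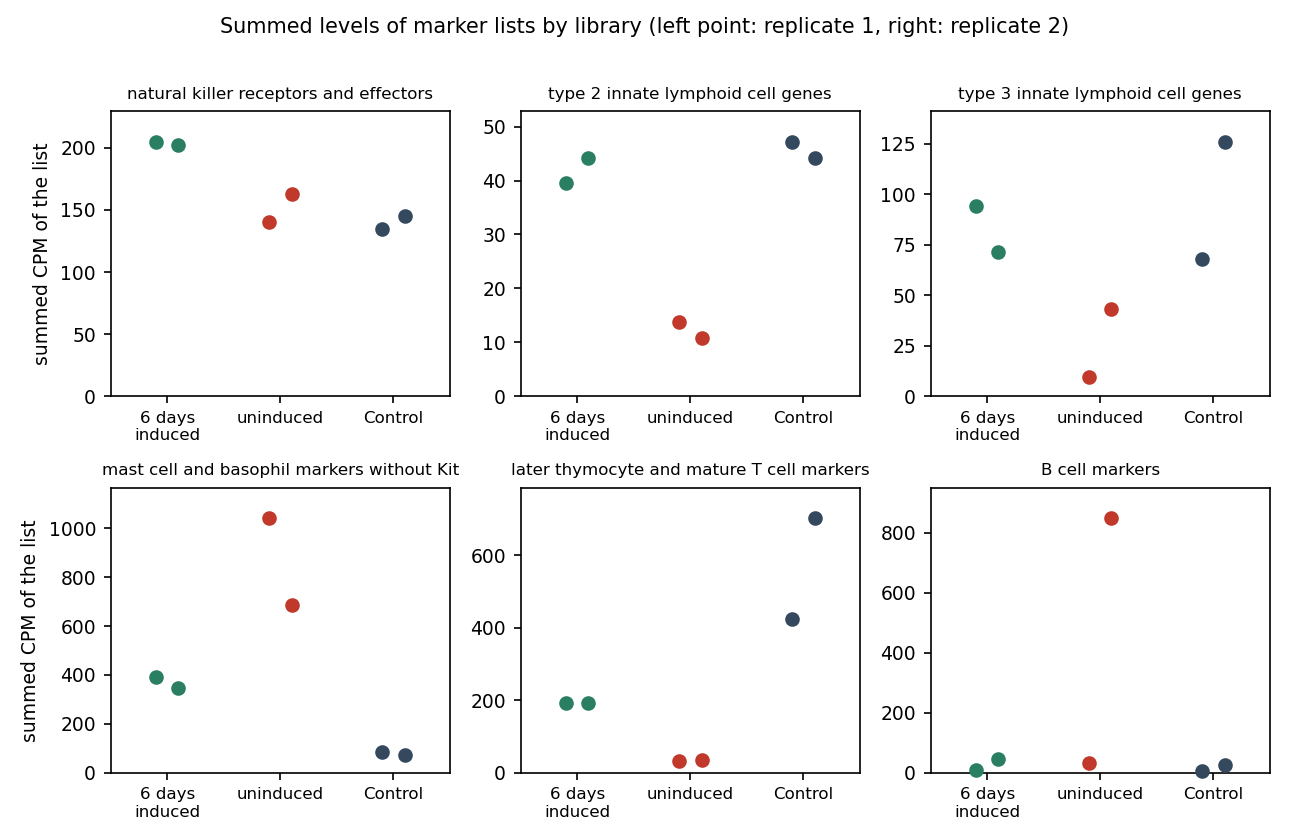
Summed CPM of marker lists in each library, with points for the 2 libraries of a group. The mast cell and basophil sum without Kit lies at 346 CPM or above in induced and uninduced libraries and at 85.2 CPM or below in Control libraries.

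The genes most like each called member were found by Pearson r of log2 CPM over the 6 libraries, among 3802 genes with an SD of at least 1, as a description only. For Il1rl1 these were Tgfbr3 (r = 0.995), Apoe (r = 0.9928) and Arap3 (r = 0.9923). Apoe stood at 150 and 139 CPM in induced cells, 229 and 217 CPM in uninduced cells and 9.52 and 23.2 CPM in Control cells. For Il18r1 they were Nrarp (r = 0.9901), a direct Notch target, Depp1 (r = 0.9791) and Cd7 (r = 0.9761). Nrarp stood at 29.1 and 28.8 CPM in induced cells, 4.87 and 9.03 CPM in uninduced cells and 21.8 and 14.3 CPM in Control cells. For Zbtb16 they were Gna14 (r = 0.9862), Fcer1g (r = 0.9822), a signalling chain of the IgE receptor, and Slc45a3 (r = 0.9809).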

How the data were processed

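RNA of FACS-sorted DN1a/b cells was sequenced in 6 libraries. Each deposited file holds the raw counts of 1 library for 47729 Ensembl genes, in whole numbers and not normalized. The submitters' processing notes name the build mm10 and the tools HISAT2, HTSeq and StringTie, with no versions. Neither the annotation release nor the strand setting is stated, so antisense reads may be counted with a gene, and near-identical paralogs can share reads. GENCODE M21 (GRCm38, the build of mm10) held 47310 of the gene IDs. Promoter sequence came from RefSeq windows on GRCm38.p6, of which the 250 bases before the start were searched.

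Counts were tested with edgeR 4.0.16 in R 4.3.3. The function filterByExpr (minimum count 10, minimum total 15) kept 18174 genes, and TMM factors ran from 0.824 to 1.13. One quasi-likelihood fit held all 6 libraries, 1 mean for each group and 3 residual degrees of freedom. The p-values were adjusted by Benjamini-Hochberg over all genes tested, with a threshold of 0.05. Standard errors are log2 fold changes divided by the square root of F, without sign. CPM are on TMM-scaled totals. Lower bounds on folds set a library without counts to 3 counts, which allows for counting error only. Likeness used log2 CPM with a prior count of 2. The scripts were tested on simulated data. Replicates differed by more than sampling noise (chi-square per degree of freedom of at least 16.4), so none was counted as a duplicate.

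The members and lists were chosen with earlier results of these data known. Besides the members, 13 lists were used: receptor partners and signalling, interleukin 1 receptor genes, ligands, other innate lymphoid factors, natural killer, type 2 and type 3 genes, precursor surface genes, and mast cell, T cell, B cell, myeloid and DN1 markers. Named from each list and comparison were at most 4 genes past the threshold with the smallest p, the partners of the member receptors and Rbpj. Others are said to be named after their values were seen. The ligands, the genes at 0 and the cluster genes were also named after their values were seen. The same holds for the marker genes Kit, Gata2, Ms4a2, Cma1, Mcpt4, Tpsb2, Cpa3, Prss34, Fcer1a and Cd8a. The sum of mast cell markers without Kit was added after the values were seen. Alternatives were DESeq2 1.42.0, median-ratio or no scaling factors, no filter or at least 1 CPM in 2 libraries, the replicate number as a block, the 4 compared libraries alone, and leaving out each library.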

Additional observations from a re-analysis of the deposited data

How the results depend on the processing

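With 2 libraries a group, single libraries decide many values, and counts of genes moved with the setting. The 2 members higher and 1 lower in uninduced against Control cells became 1 higher with total counts, and 1 higher and 0 lower with the 4 compared libraries alone. Leaving out 1 library gave 1 to 4 members higher and 0 to 2 lower there, 1 to 2 higher in induced against uninduced cells, and 1 to 3 higher in induced against Control cells. On induction 0 members were higher with the 4 libraries alone. Against Control, 2 were higher in induced cells with DESeq2, with no filter and with the replicate block. Il1rl1 kept both calls against Control in all 13 alternatives. Depth limits Klrb1c, Tbx21 and Eomes, with at most 24, 31 and 75 counts in a library. With the 4 libraries alone, Eomes and Tbx21 in uninduced against Control and Klrb1c in induced against uninduced cells were filtered out and have no value, and the fold changes of the members at 0 in a library are fitted values.

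Over all genes, the calls in uninduced against Control cells (452 higher, 533 lower) became 802 and 1032 with DESeq2, 725 and 815 with no filter, and 93 and 126 with the 4 libraries alone, and 284 were higher with total counts. In induced against uninduced cells (282 and 75) they became 744 and 497 with DESeq2, 675 and 314 with no filter, and 70 and 1 with the 4 libraries alone, and 34 were lower with total counts. In induced against Control cells (34 and 0) they became 173 and 49 with DESeq2, 247 and 57 with no filter, and 142 and 35 with the 4 libraries alone, and 1 was lower with total counts. Leaving out 1 library gave 185 to 1007 higher and 260 to 1165 lower, 156 to 951 and 15 to 549, and 20 to 266 and 0 to 71 in these comparisons. The median of all genes moved to -0.13 with total counts and -0.37 with no filter in uninduced against Control cells. The cause of these shifts was not tested.

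Directions that turned all belonged to differences not called with all 6 libraries. With total counts, Klrb1c became -0.14 in uninduced against Control and Eomes 0.05 in induced against uninduced cells. Leaving out 1 library gave ranges in uninduced against Control cells of -1.23 to 0.68 for Rora, -0.81 to 0.11 for Nfil3, -6.48 to 1.11 for Klrb1c, -4.36 to 8.19 for Eomes, -5.11 to 2.84 for Tbx21 and -8.4 to 2.43 for Il2rb. In induced against uninduced cells the ranges were -0.4 to 0.29 for Zbtb16, -3.19 to 4.4 for Klrb1c, -1.13 to 8.1 for Eomes, -1.49 to 6.47 for Tbx21 and -0.74 to 10.07 for Il2rb, which was also -0.09 without induced replicate 1. Rora ran from -0.45 to 1.47 in induced against Control cells.

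Same-numbered libraries did not deviate together over all genes (r = -0.0407, 0.0253 and 0.0107 over 18174 genes). A correlation over all genes cannot show whether these libraries share a batch that acts on some genes. With the replicate block, 133 genes were lower in induced against uninduced cells, and 101 were higher and 7 lower in induced against Control cells. The block gave -0.4 for Klrb1c in uninduced against Control, and 0.28 for Eomes and 0.04 for Tbx21 in induced against uninduced cells. Zbtb16 in induced against Control cells was 2.39 with the block (adjusted p = 0.0438).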
